A study of Oryza sativa Japonica Group with 8 samples.

Results

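The B class and B-sister MADS genes of rice, together with OsMADS32, were followed through the pistil. The group holds 7 genes, chosen by locus identifier from the 38726 features of the deposited count table: OsMADS2 (Os01g0883100), OsMADS4 (Os05g0423400) and OsMADS16 (Os06g0712700) as B class, OsMADS29 (Os02g0170300), OsMADS30 (Os06g0667200) and OsMADS31 (Os04g0614100) as B-sister, and OsMADS32 (Os01g0726400). Each identifier carries its chromosome number in its first digits, so the genes lie on chromosomes 1, 5, 6, 2, 6, 4 and 1. All 7 had counts in every library and all 7 passed the filter on low counts in each comparison.

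The plants were wild-type, untreated rice (Oryza sativa ssp. japonica, cultivar Nipponbare) at heading, the stage at which the flowering panicle emerges. There were 3 groups: RNA of sorted nuclei from pistils (n = 2), whole-cell RNA of the upper pistil (n = 3) and whole-cell RNA of the lower pistil (n = 3). The pistil is the female organ, with stigmas and styles above an ovary that encloses the ovule, and where it was cut is not stated in the labels. Nothing in the labels ties a replicate to a plant, and p-values therefore reflect only how these samples spread, a spread that may be technical.

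MADS-domain proteins are transcription factors that act in complexes and set the identity of floral organs. B class genes come as an APETALA3-like and a PISTILLATA-like type, whose products bind DNA as heterodimers. They are best known for specifying stamens and lodicules, the organs beside the pistil that correspond to petals. In rice OsMADS16 is the APETALA3-like member, and OsMADS2 and OsMADS4 are the PISTILLATA-like members. B-sister genes are the closest relatives of the B class and are known for their roles in ovules and seed coats. OsMADS29 is known in rice for the breakdown of the nucellus, the maternal tissue around the embryo sac, as the seed develops. OsMADS32 belongs to a lineage known from grasses and takes part in floral organ identity.

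Total counts were 10857036 and 9268151 in the nuclei libraries and between 24796307 and 35518142 in the whole-cell libraries. Lower replicate 3 resembled the upper part more than its own: across genes its Spearman correlation averaged 0.919 to upper libraries and 0.878 to the remaining lower ones. Each of the other 5 whole-cell libraries was closer to its own part. A list of 3 carpel and ovule loci had counts in every library, with summed levels of 531 to 701 CPM in nuclei, 640 to 680.1 CPM in the upper part and 557 to 787 CPM in the lower part. CPM is the count of a gene scaled to a common library size, here with factors from the trimmed mean of M-values (TMM) over all 8 libraries. Single loci of that list went both ways: edgeR put 1 higher and 1 lower in the upper than the lower part, at an unadjusted p under 0.05. Their median log2 fold change was -0.98. It called 0 of them, but 1 higher with the replicate number as a block, and DESeq2 called 1 higher. In nuclei against the lower part, edgeR called 1 higher and put 1 lower at an unadjusted p under 0.05. A list of 10 loci of stamens and pollen, which a dissected pistil could carry, had summed levels of 19.98 and 19.8 CPM in nuclei. It had 114, 133 and 413 CPM in upper replicates 1, 2 and 3, and 10.1, 28.5 and 206 CPM in lower replicates 1, 2 and 3. Between 0 and 2 of the 10 loci were at 0 counts in any one library. Between the upper and lower part edgeR called 0 of the 8 tested stamen and pollen loci, at a median log2 fold change of 1.33, with 1 higher at an unadjusted p under 0.05 and 0 called by DESeq2. With the replicate number as a block it again called 0, but 5 were higher at an unadjusted p under 0.05 and the median was 2.51. Without lower replicate 3, 2 of 9 tested were called higher. In nuclei against the mean of the parts, edgeR called 2 of the 10 higher and 1 lower and DESeq2 2 higher and 4 lower, at a median log2 fold change of -1.47 by edgeR, while 14.1% of all genes were called higher and 8.76% lower by edgeR. With library size as the only scaling 0 were higher and 1 was lower. Neither list was chosen for lodicules, which also lie beside the pistil, so carry-over of lodicules was not examined. Both lists rest on general knowledge of rice locus identifiers, which the files do not annotate, so their loci are not named.

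The 3 B class genes were all detected in every library, and all 3 had their highest group mean in the upper part. OsMADS2 had 118 and 225 CPM in nuclei, 323, 374 and 308 CPM in the upper part and 142, 95.02 and 239 CPM in the lower part. Every upper library lay above every nuclei and every lower library, while nuclei and lower libraries overlapped. OsMADS4, the other PISTILLATA-like gene, had 95.6 and 102 CPM in nuclei, 113, 152 and 84.8 CPM in the upper part and 80.6, 73.7 and 79.4 CPM in the lower part. Its upper libraries all lay above the lower ones, but by little in upper replicate 3, and its nuclei libraries lay within the range of the upper part. The place of upper replicate 3 rested on the TMM factors, 0.820 there and 1.05 in lower replicate 3. Before that scaling, upper replicate 3 had fewer OsMADS4 counts (1877 of 26983741) than lower replicate 3 (2085 of 24962880). For OsMADS2, upper replicate 3 and lower replicate 3 had nearly equal shares before that scaling, at 6809 and 6281 counts of those totals. OsMADS4 was the steadiest of the 7 genes in the lower part, where its highest library exceeded its lowest 1.09-fold.

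**Figure D1:**
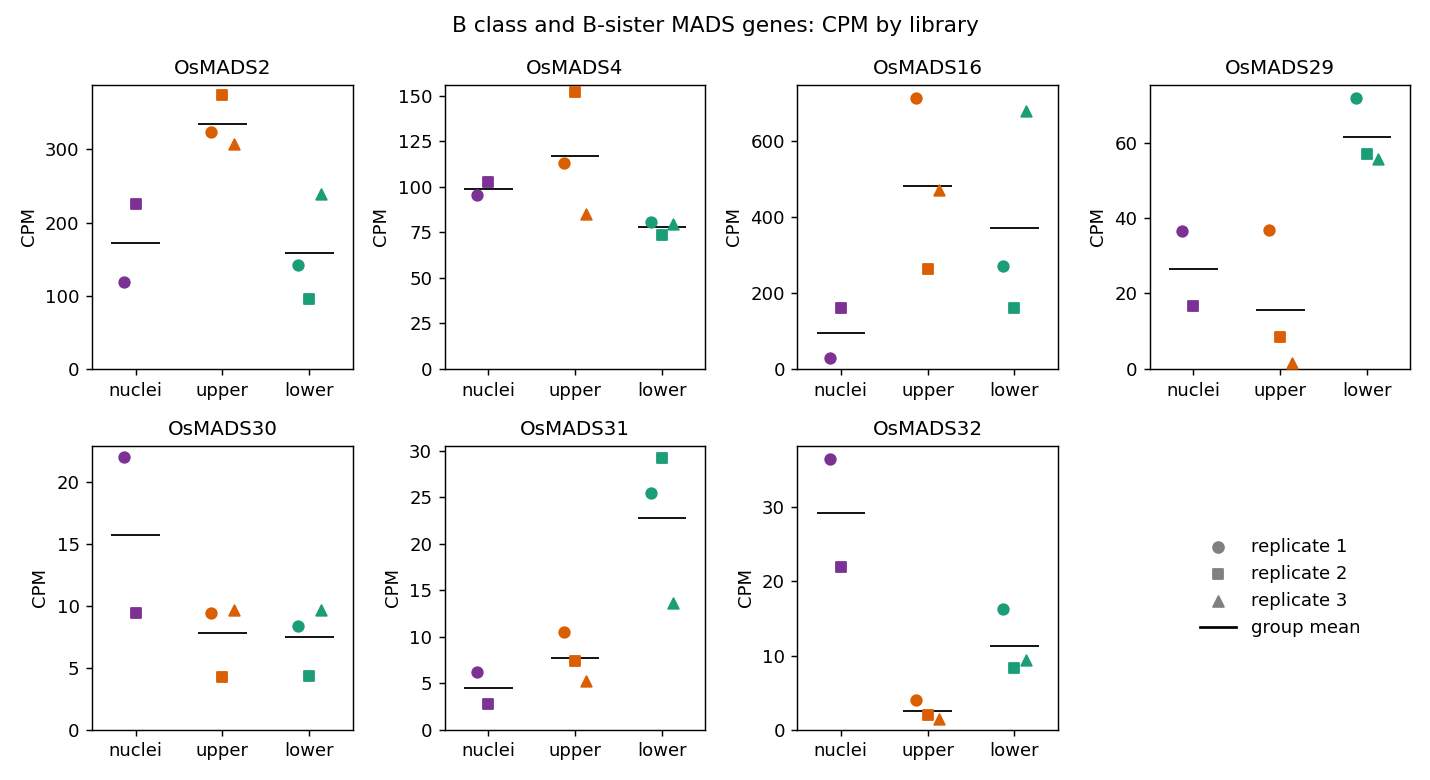
CPM of the 7 genes in each library, with nuclei, upper and lower parts from left to right, replicates as symbols and a line at each group mean. OsMADS2 is higher in all upper libraries than elsewhere, OsMADS29 and OsMADS31 are higher in all lower libraries than elsewhere, and OsMADS32 is highest in nuclei. OsMADS16 spreads widely within each group.

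The counts of OsMADS2 nearly matched those of the locus with the neighbouring identifier, Os01g0883000. That locus had 8679 counts against 8602 for OsMADS2 in upper replicate 1, and 1390 against 1322 in nuclei replicate 1. It held between 30 and 100 counts more than OsMADS2 in every library, or between 0.697% and 5.14% more. The sources used here do not say whether the same reads were counted at both loci, and all values of OsMADS2 carry that limit.

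OsMADS16, the APETALA3-like gene, was uneven between replicates of the same part. It had 29.8 and 161 CPM in nuclei, 713, 263 and 471 CPM in the upper part and 271, 159 and 677 CPM in the lower part. Lower replicate 3 was 4.25 times lower replicate 2, and nuclei replicate 2 was 5.38 times nuclei replicate 1. The parts overlapped, and nuclei replicate 2 overlapped with lower replicate 2. Lower replicate 3, the highest lower library for OsMADS16 and OsMADS2, was also the lower library with the most counts at the stamen and pollen loci. Within the upper part the order differed: replicate 3 had the most stamen and pollen counts, replicate 1 the most OsMADS16 and replicate 2 the most OsMADS2. The part of these loci in the OsMADS16 and OsMADS2 levels was not tested. In bulk samples, fewer cells of a type and less RNA per cell cannot be told apart.

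**Figure D2:**
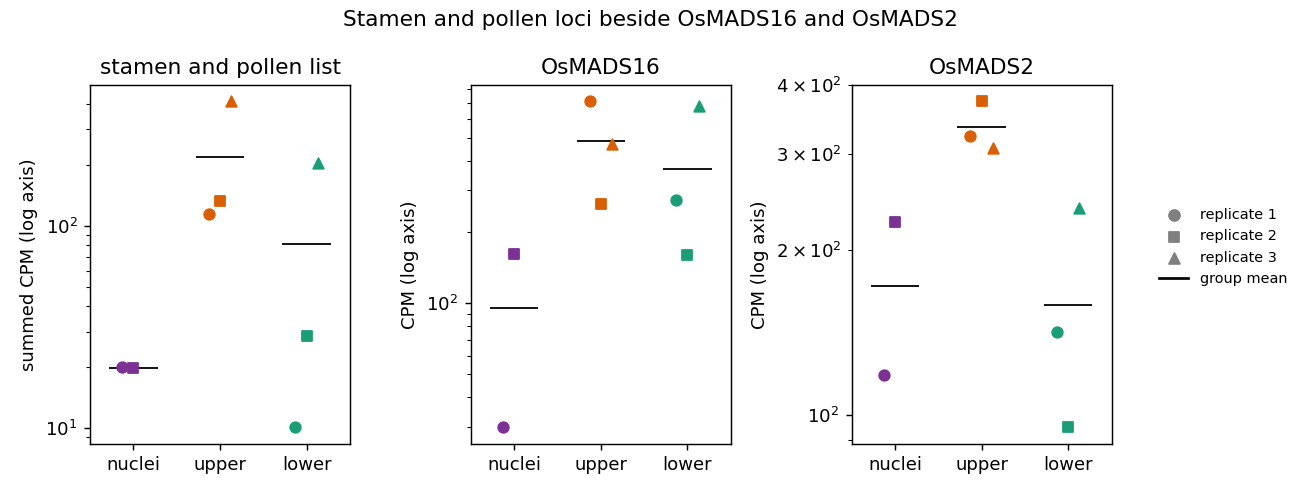
Summed CPM of the 10 stamen and pollen loci beside CPM of OsMADS16 and OsMADS2, by library, on log axes, with lines at group means. Lower replicate 3 is the highest lower library in all 3 panels (206, 677 and 239 CPM), whereas the highest upper library differs between panels.

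Among the B-sister genes, OsMADS29 and OsMADS31 were highest in the lower part. OsMADS29 had 36.5 and 16.7 CPM in nuclei, 36.9, 8.36 and 1.67 CPM in the upper part and 71.8, 57.0 and 55.6 CPM in the lower part. Every lower library lay above every other library. The lower libraries were close together, with a mean of 61.5 ± 8.96 CPM (SD, n = 3), while the upper libraries spread 22.0-fold around a mean of 15.6 ± 18.7 CPM (SD, n = 3). OsMADS31 had 6.18 and 2.72 CPM in nuclei, 10.5, 7.43 and 5.29 CPM in the upper part and 25.5, 29.2 and 13.7 CPM in the lower part. Here too the lower libraries lay above all others, and nuclei and upper libraries overlapped.

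OsMADS30, the remaining B-sister gene, did not follow this order. It had 22.0 and 9.40 CPM in nuclei, 9.40, 4.28 and 9.63 CPM in the upper part and 8.37, 4.33 and 9.67 CPM in the lower part. All 3 groups overlapped, and replicate 2 was the lowest library in each.

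OsMADS32 was ordered without overlap: it was highest in nuclei, intermediate in the lower part and lowest in the upper part. It had 36.6 and 21.9 CPM in nuclei, 3.99, 1.98 and 1.45 CPM in the upper part and 16.3, 8.28 and 9.41 CPM in the lower part. The means were 29.2 ± 10.4 CPM in nuclei (SD, n = 2), 2.47 ± 1.34 CPM in the upper part (SD, n = 3) and 11.3 ± 4.33 CPM across lower libraries (SD, n = 3). The upper values rest on 204 counts in all, against 1074 counts in the lower part. CPM is not corrected for gene length, so levels are not compared between genes.

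The first comparison asked how the genes differ between the upper and the lower pistil. The B-sister genes OsMADS29 and OsMADS31 and OsMADS32 lay on the lower side, OsMADS2 and OsMADS4 on the upper side, and OsMADS16 and OsMADS30 on neither. In TMM-scaled CPM the libraries of the parts did not overlap for 5 of the 7 genes, 2 higher and 3 lower in the upper part. Of the 29848 genes tested, 20.5% had no overlap, 9.93% higher and 10.6% lower. For OsMADS4 the lack of overlap rested on the TMM factors, as given above. For OsMADS2 nearly all of the gap between upper replicate 3 and lower replicate 3 did too. In the fit without a block, edgeR's quasi-likelihood test called none of the 7, with calls set at an adjusted p under 0.05 together with at least 1 log2 unit of change. At an unadjusted p under 0.05 it gave 1 gene higher and 2 lower. The background in that edgeR fit was 0.814% of all genes called, with 0.811% higher and 0.00335% lower. DESeq2 called 0 of the 7 higher and 2 lower, and over 29721 genes it called 1218 higher and 411 lower. The median log2 fold change was 0.08 over the 7 genes and -0.02 over all genes tested.

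Upper and lower libraries of the same replicate number were treated as pairs, on a check described under the processing. In a fit with that number as a block, OsMADS31 and OsMADS32 were lower in the upper part, 2 of 7 genes, against a background of 8.14% of all genes called, 5.12% higher and 3.02% lower. OsMADS32 fell by 2.23 on the log2 scale (SE 0.29, edgeR adjusted p = 0.0179), a 4.69-fold difference. In its pairs 1, 2 and 3 the lower part was 4.08, 4.19 and 6.50 times the upper part. OsMADS31 fell by 1.52 on the log2 scale (SE 0.23, edgeR adjusted p = 0.0233), a 2.87-fold difference. In its pairs the lower part was 2.43, 3.94 and 2.59 times the upper part. Without the block the log2 fold changes were nearly as large, -2.16 (SE 0.51, edgeR adjusted p = 0.132) for OsMADS32 and -1.53 (SE 0.41, edgeR adjusted p = 0.172) for OsMADS31. Over all alternatives the adjusted p ran from 0.00254 to 0.435 for OsMADS32 and from 0.0144 to 0.534 for OsMADS31. Both calls were lost in the blocked fit without pair 2, where the adjusted p was 0.0980 for OsMADS32 and 0.128 for OsMADS31, at log2 fold changes of -2.35 and -1.32. Without pair 3, which holds the lower library that stood apart, both were called, at -2.08 and -1.66 (edgeR adjusted p = 0.0204 and 0.0211). Over all genes, 98 of 30181 were called without pair 2 and 2933 of 30038 without pair 3, 644 of the latter lower.

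OsMADS29 had the widest interval of the 7 genes. Its log2 fold change, upper over lower, was -1.95 (SE 0.91, 95% interval from -4.06 to 0.17, edgeR adjusted p = 0.391), and with the block -2.80 (SE 0.79, edgeR adjusted p = 0.0782). All 3 pairs went the same way, but the lower part was 1.95, 6.82 and 33.2 times the upper part in pairs 1, 2 and 3. The value therefore moved with single libraries, to -3.58 without upper replicate 1 and -1.41 without upper replicate 3. With the block and pair 1 or pair 3 left out the gene was called, at log2 fold changes of -3.74 and -1.89 (edgeR adjusted p = 0.00901 and 0.0360; from 0.00901 to 0.728 over all alternatives). In those fits 1265 of 30228 and 644 of 30038 genes were called lower.

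OsMADS2 had a log2 fold change of 1.09 (SE 0.46, 95% interval from 0.04 to 2.15, edgeR adjusted p = 0.346), and with the block 1.20 (SE 0.40, edgeR adjusted p = 0.104). It was higher in the upper part in all 3 pairs (2.28, 3.94 and 1.29 times), the last almost wholly through the TMM factors. With the block and pair 3 left out it was called, at 1.56 (edgeR adjusted p = 0.0490; from 0.0490 to 0.735 over all alternatives). In that same fit edgeR also called 6 of 9 stamen and pollen loci higher in the upper part, at a median log2 fold change of 3.56, and 2933 of 30038 genes were called. The part of these loci in the OsMADS2 difference was not tested. OsMADS4 had a log2 fold change of 0.61 (SE 0.32, 95% interval from -0.13 to 1.35, edgeR adjusted p = 0.429), with ratios of 1.41, 2.06 and 1.07 in the pairs. For OsMADS16 the value was 0.40 (SE 0.67, 95% interval from -1.16 to 1.95, edgeR adjusted p = 0.793). Its pairs disagreed, with the upper part at 2.63, 1.65 and 0.696 times the lower part. Without lower replicate 3 the log2 fold change of OsMADS16 was 1.16 and that of OsMADS2 was 1.50 (edgeR adjusted p = 0.291 and 0.104), and without upper replicate 1 that of OsMADS16 was -0.0015 (edgeR adjusted p = 1.00). OsMADS30 had a log2 fold change of 0.08 (SE 0.47, 95% interval from -1.02 to 1.17, edgeR adjusted p = 0.950). With the block that interval ran from -0.51 to 0.65, and its pairs gave ratios of 1.12, 0.989 and 0.995.

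**Figure D3:**
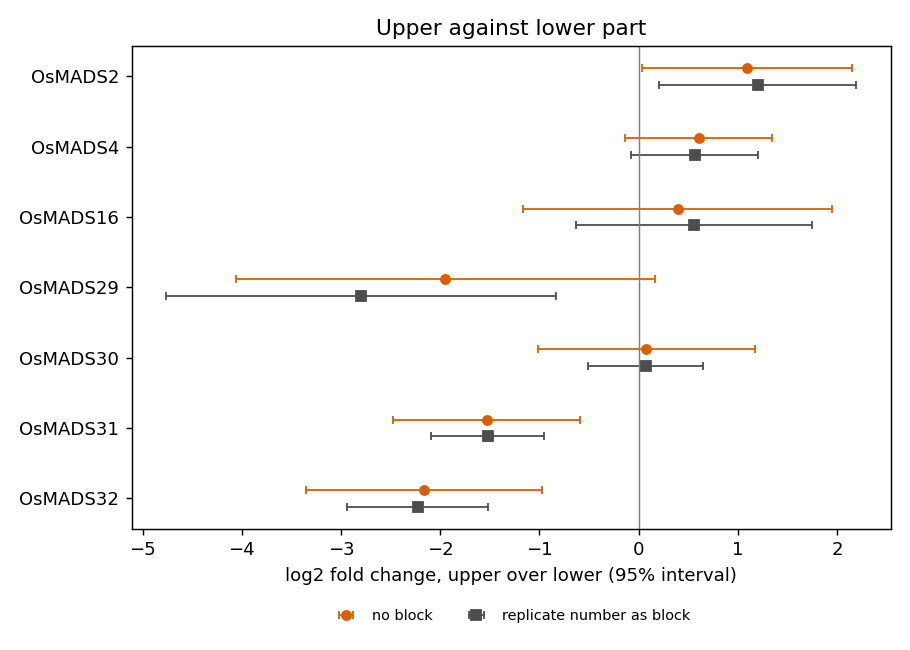
Log2 fold change of each gene, upper over lower, with 95% intervals, in fits without a block (circles) and with the replicate number as a block (squares). OsMADS31 and OsMADS32 lie below 0 in both fits (-1.53 and -2.16 without the block) and have narrower intervals with it. The intervals are not adjusted for the number of genes tested.

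The second comparison set sorted nuclei against whole-cell RNA. OsMADS32 was higher in nuclei, OsMADS31 was lower in nuclei than in the lower part, and the other 5 genes were not called by edgeR in the fit without a block. The nuclei libraries came from another kit than the whole-cell ones, and the effects of kit and compartment cannot be told apart. Against the mean of the parts, 1 of 7 genes was called higher and 0 lower, while the background was 22.9% of 31858 genes called, 14.1% higher and 8.76% lower. For the 0 lower, edgeR gave 2 genes at an unadjusted p under 0.05 and DESeq2 called 2. Over 31763 genes DESeq2 called 5224 higher and 4429 lower. For 1 of the 7 genes, OsMADS32, nuclei and whole-cell libraries did not overlap, against 35.4% of the genes tested, 17.2% higher and 18.2% lower. The median log2 fold change was -0.19 over the 7 genes and -0.03 over all genes tested.

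OsMADS32 had a log2 fold change of 2.50 in nuclei over the mean of the parts (SE 0.44, edgeR adjusted p = 0.00425), a 5.64-fold difference, with both nuclei libraries above all 6 whole-cell libraries. The call was lost without nuclei replicate 1, where the value was 2.07 (edgeR adjusted p = 0.0631; from 2.60e-05 to 0.0631 over all alternatives) and calls over all genes numbered 2378, against 7293 with it. In fits without a nuclei replicate the remaining one is assumed to vary like the other groups. Against the upper part it was 12.0-fold higher in nuclei (log2 fold change 3.59, SE 0.55, edgeR adjusted p = 0.00453). That call was kept in all alternatives that held both nuclei replicates, and log2 fold changes ran from 3.17 to 4.10 over all 14. Among these, the adjusted p alone as threshold repeats the main fit and cannot lose a call. Against the lower part the log2 fold change was 1.40 (SE 0.53, 95% interval from 0.23 to 2.57, edgeR adjusted p = 0.0948). Against the upper part 19.9% of all genes were called, 11.1% higher and 8.84% lower, and against the lower part 15.5%, 10.1% higher and 5.4% lower.

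OsMADS31 was 4.98-fold lower in nuclei than in the lower part (log2 fold change -2.32, SE 0.57, edgeR adjusted p = 0.0266). The call was lost without lower replicate 2, nuclei replicate 1 or nuclei replicate 2, at log2 fold changes of -2.18, -3.04 and -1.86 (edgeR adjusted p = 0.0580, 0.0514 and 0.101; from 0.00116 to 0.101 over all alternatives). Without lower replicate 3 it was called, at -2.57 (edgeR adjusted p = 0.0212). The nuclei values rest on 69 and 22 counts. Against the mean of the parts the value for OsMADS31 was -1.54 (SE 0.52, edgeR adjusted p = 0.0563; from 0.0134 to 0.222 over all alternatives), and against the upper part -0.76 (SE 0.54, edgeR adjusted p = 0.330). OsMADS29 had -0.19 against the mean of the parts (SE 0.82, 95% interval from -2.02 to 1.64, edgeR adjusted p = 0.884). OsMADS30 had 1.08 (SE 0.49, 95% interval from -0.0026 to 2.16, edgeR adjusted p = 0.131), and 0.33 without nuclei replicate 1.

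Of the B class genes, OsMADS16 had the largest difference between nuclei and whole cells. Its log2 fold change against the mean of the parts was -2.12 (SE 0.86, 95% interval from -4.04 to -0.20), with an edgeR adjusted p of 0.0992, and it ran from -3.81 without nuclei replicate 2 to -1.37 without nuclei replicate 1. DESeq2 called it lower, at -2.10 (DESeq2 adjusted p = 0.0130; from 0.0130 to 0.394 over all alternatives). Summed over the stamen and pollen loci, nuclei had 19.98 and 19.8 CPM, against 10.1 to 413 CPM in whole cells. Single loci went both ways, with 2 of the 10 called higher and 1 lower by edgeR. Their part in the OsMADS16 difference was not tested. For OsMADS4 the log2 fold change against the mean of the parts was 0.08 (SE 0.35, 95% interval from -0.69 to 0.86, edgeR adjusted p = 0.878). OsMADS2 had -0.39 (SE 0.50, 95% interval from -1.50 to 0.71, edgeR adjusted p = 0.584).

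**Figure D4:**
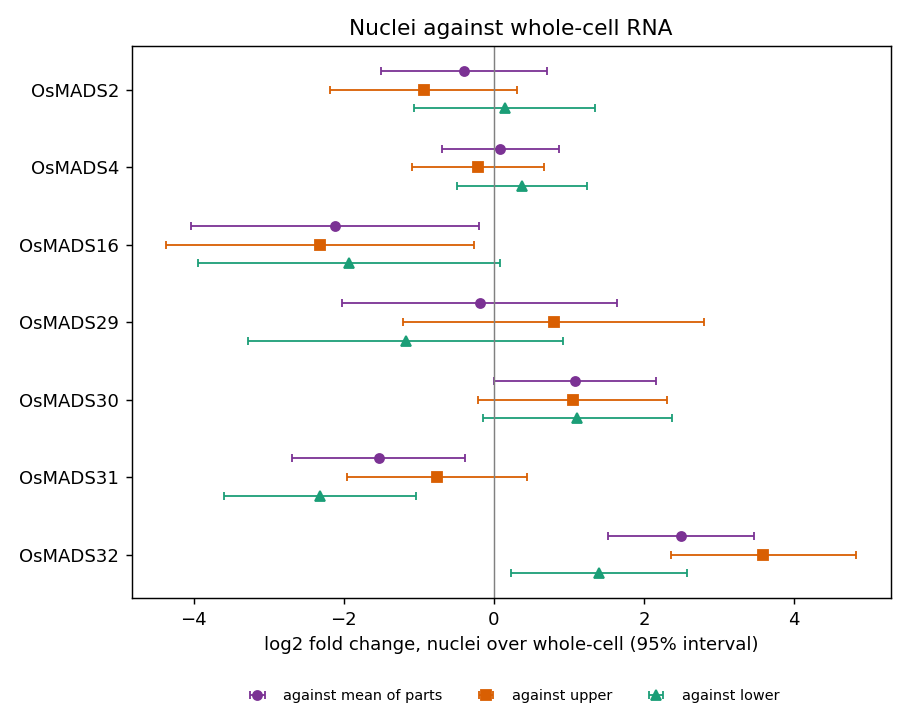
Log2 fold change of each gene in nuclei over the mean of the parts (circles), over the upper part (squares) and over the lower part (triangles), with 95% intervals not adjusted for the number of genes. The 3 values of a gene share the nuclei libraries. The estimate of OsMADS32 lies above 0 and that of OsMADS31 below 0 in all 3, at 2.50 and -1.54 against the mean of the parts. The interval of OsMADS31 against the upper part includes 0 (-0.76, SE 0.54).

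Ratios of counts within a library do not depend on scaling and were used to compare related genes. OsMADS2 had 1.24 and 2.20 counts per count of OsMADS4 in nuclei, 2.85, 2.46 and 3.63 in the upper part and 1.76, 1.29 and 3.01 in the lower part. These ratios are not corrected for gene length, carry the limit on OsMADS2 given above and are compared only between libraries. The log2 ratio was 1.56 ± 0.28 in the upper and 0.92 ± 0.62 in the lower part (SD, n = 3 each), and the parts overlapped through lower replicate 3. Within pairs 1, 2 and 3 the upper log2 ratio was higher than the lower one by 0.70, 0.93 and 0.27, and an exact sign-flip test of the pairs, added after the data were seen, gave p = 0.25, the smallest that 3 pairs allow. The exact permutation test, two-sided, gave p = 0.3 for upper against lower, where 3 against 3 cannot go below 0.1, and p = 0.286 for nuclei against whole cells. OsMADS29 had 5.90 and 6.14 counts per count of OsMADS31 in nuclei, 3.51, 1.13 and 0.316 in the upper part and 2.81, 1.95 and 4.07 in the lower part. Both nuclei ratios lay above all 6 whole-cell ratios, with a mean log2 ratio of 2.57 ± 0.03 in nuclei (SD, n = 2) and 0.80 ± 1.37 in whole cells (SD, n = 6). The exact permutation test, two-sided, gave p = 0.107 for nuclei against whole cells, where 28 splits cannot go below 0.0357, and p = 0.3 for upper against lower. Of its pairs 1 of 3 was higher in the upper part (exact sign-flip test, p = 0.5). Without upper replicate 1 or 3 the difference, upper minus lower, was -2.23 or -0.50, against -1.38 with all libraries. The Benjamini-Hochberg adjusted p was 0.3 for each of the 4 exact permutation tests. The ratio of OsMADS16 to OsMADS2 was added after the data were seen and was not tested. It was 0.252 and 0.713 in nuclei, 2.20, 0.703 and 1.53 in the upper part and 1.91, 1.68 and 2.83 in the lower part.

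**Figure D5:**
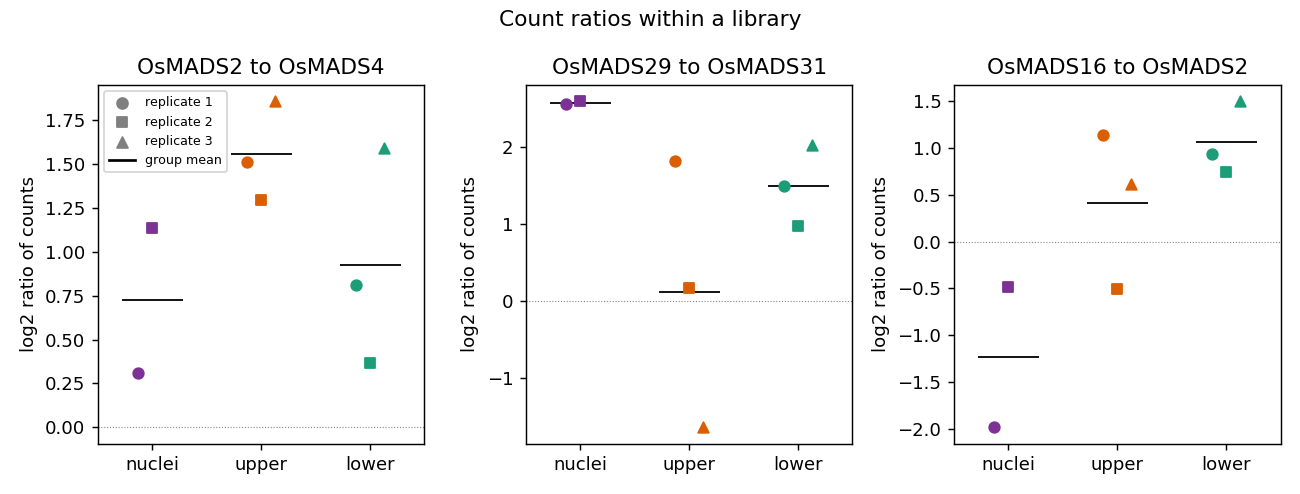
Log2 ratio of counts of OsMADS2 to OsMADS4, OsMADS29 to OsMADS31 and OsMADS16 to OsMADS2 in each library, with nuclei, upper and lower parts from left to right and lines at group means. The nuclei replicates nearly coincide for OsMADS29 to OsMADS31 (2.55 and 2.59), where the upper libraries range from -1.65 to 1.81.

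The proteins of the B class act together with those of other floral MADS genes, and a list of 11 such loci (C, D, SEPALLATA and AGL6 types) was examined beside the 7. These loci are not annotated in the files either and are not named. Some of them also stand in the list of carpel and ovule loci, so these lists are not independent. Of the 11, all tested, 1 was called higher and 0 lower in the upper against the lower part without the block. At an unadjusted p under 0.05 edgeR put 2 of them lower, and DESeq2 called 2 higher and 0 lower. With the block 2 were higher and 1 was lower. Over all genes the share called was 0.814% without the block and 8.14% with it. In nuclei against the mean of the parts, 1 was higher and 0 were lower, while 22.9% of all genes were called. At an unadjusted p under 0.05 edgeR put 3 of them lower, and DESeq2 called 1 higher and 2 lower. Their median log2 fold change was 0.05 for upper over lower and -0.14 for nuclei over the mean of the parts, beside -0.02 and -0.03 over all genes tested. Their summed level was 2547 and 2459 CPM in nuclei, 2928 to 4574 CPM in the upper part and 2981 to 3934 CPM in the lower part.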

How the data were processed

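PolyA RNA of dissected pistils was measured. Per the labels' protocols, libraries of the upper and lower parts were made from whole-cell RNA with the stranded NEBNext Ultra II Directional kit. Nuclei were stained with PI, sorted by fluorescence and prepared with a SMART-Seq kit, so kit and compartment coincide. The submitters' processing notes name STAR, featureCounts, DESeq2 and the build IRGSP-1.0, without versions. Strand use and the treatment of reads at overlapping loci are not given there. Raw counts, without normalization, are what the authors deposited, in 1 table. Each of its 8 columns matched 1 sample's title, and 0 columns stayed unused. No sequences were used. The reference gene table does not pair these locus identifiers with names, so the 7 names come from the definition of the group.

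Tests were fitted on the whole table with edgeR 4.0.16 in R 4.3.3: quasi-likelihood test, TMM scaling, edgeR's filter on low counts, and Benjamini-Hochberg adjustment over all genes tested. SEs are the log2 fold change over the square root of F. Upper and lower were compared in a fit of 6 libraries, and nuclei in a fit of all 8. DESeq2 1.42.0, other scalings, no filter, the adjusted p alone as threshold, a replicate block and each library left out were alternatives. The fits without a block were also run on simulated counts, drawn without a shared replicate effect, so the blocked fit was not covered. Ratios used a pseudocount of 0.5 counts. All 7 genes are described. The genes, lists and tests were chosen with earlier results of these data known.

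Upper and lower libraries with the same number deviated together from their group means across genes (r = 0.373, 0.694 and 0.675, against at most 0.0492 for unlike numbers), so the numbers were taken as pairs. Deviations from a group mean cancel within each gene, so the values for unlike numbers are not an independent baseline. The labels do not say what the pairs share.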

Additional observations from a re-analysis of the deposited data

How the results depend on the processing

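Of 399 values of single genes under alternatives, 358 kept their direction and their side of the threshold, 21 gained a call, 4 lost one and 16 changed sign; the cause was not tested. The 399 include values with the adjusted p alone as threshold, which repeat the main fit and can only gain a call. For upper against lower, 0 genes called became 2 with DESeq2, 2 with the replicate block, and 3 and 4 with the block and pair 1 or 3 left out (chosen after seeing the data). The count stayed 0 with any library left out of the fit without a block. With the block, 3549 of 30228 genes were called without pair 1 and 2933 of 30038 without pair 3. For nuclei against the parts, 1 called became 2 without a filter, 3 with DESeq2, and 0 to 2 with a library left out. Against the upper part, 1 became 2 with DESeq2, and against the lower part 1 became 0 to 1 with a library left out. The labels do not say that nuclei numbers mark pairs, and differences between nuclei replicates 1 and 2 correlated with those of the upper and lower part at 0.102 and 0.400. With the replicate block the nuclei calls were 3 against the parts, 2 against the upper and 3 against the lower part, while 9502, 8988 and 8065 of 31858 genes were called. OsMADS30 was then higher in all 3 (1.25, 1.23 and 1.28; edgeR adjusted p = 0.0161, 0.0266 and 0.0259), OsMADS31 lower against the parts (-1.84, edgeR adjusted p = 0.0134) and OsMADS32 higher against the lower part (1.22, edgeR adjusted p = 0.0328). Signs changed only for values past no threshold: with library size as the only scaling, OsMADS30 was at -0.26 for upper over lower, OsMADS2 at -0.16 for nuclei over lower and OsMADS4 at -0.063 for nuclei over the parts, and with the block OsMADS4 was at -0.0020. That scaling moved the median of all genes to -0.34, -0.34 and -0.17 in these comparisons, and the split of calls against the lower part to 2608 higher and 2915 lower, from 3230 and 1719. Leaving out a library gave -0.0015 to 1.16 for OsMADS16 and -0.23 to 0.37 for OsMADS30 (upper over lower), -0.40 to 0.57 for OsMADS2 (nuclei over lower), -0.87 to 0.62 for OsMADS29 and -0.026 to 0.20 for OsMADS4 (nuclei over the parts), and -0.40 to 0.024 for OsMADS4 (nuclei over upper). Over all genes, calls between the parts went from 243 to 1629 with DESeq2 and 2431 with the block, and to 0 without lower replicate 1; between nuclei and parts they went from 7293 to 2378 without nuclei replicate 1. The log2 ratios of counts kept their direction and stayed past no threshold, but leaving out a library gave -2.23 to -0.50 (OsMADS29 to OsMADS31) and 0.35 to 0.97 (OsMADS2 to OsMADS4) for upper minus lower, and 1.28 to 2.01 and -0.93 to -0.10 for nuclei minus parts. Depth limits OsMADS31 in nuclei most, with 22 counts in replicate 2.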

Other observations

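For each of the 7 genes, the locus with the most similar profile was sought among loci with a mean level within 4-fold of the gene, by the root-mean-square difference of centred log2(CPM + 1) over the 8 libraries. For OsMADS2 it was Os01g0883000, at 0.0189, whose counts are given in the report. For OsMADS16 it was Os02g0175800, at 0.223, while the median over 2426 candidate loci was 1.52. That locus had 40.1 and 153 CPM in nuclei, 634, 199.7 and 448 CPM in the upper part and 261, 132 and 598 CPM in the lower part. It was chosen for likeness to OsMADS16 over these libraries, so high values in upper replicate 1 and lower replicate 3 follow from the choice. Over the 6 whole-cell libraries alone the same locus was closest for 2 of the 7 genes, these 2, and another locus was closest for the other 5. Among the 7 genes themselves, the closest profiles over the 8 libraries were those of OsMADS2 and OsMADS4, at 0.530. The median over candidate loci was 0.914 for OsMADS2 and 0.680 for OsMADS4. Over the 6 whole-cell libraries they were at 0.502, beside medians of 0.821 and 0.541. There OsMADS31 and OsMADS32, at 0.445, and OsMADS16 and OsMADS30, at 0.479, were closer. OsMADS29 and OsMADS31 were each other's closest over the 8 libraries, at 1.15. The median over candidate loci was 1.63 for OsMADS29 and 1.09 for OsMADS31, so OsMADS29 was no closer to OsMADS31 than a typical candidate was. Over the 6 whole-cell libraries OsMADS32 was the closest to both, at 0.922 and 0.445, beside candidate medians of 1.76 and 0.850. The files do not annotate the loci named here, and a similar profile says nothing of function.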
